A study of Homo sapiens with 30 samples.

Results

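A set of 10 genes of the insulin, FOXO and TXNIP response (INSR, IRS1, IRS2, FOXO1, IGFBP1, PIK3IP1, SESN3, SLC2A4, TXNIP and ARRDC4) was followed by name through HepG2 cells, a human liver cancer line, after 24 h with herbal extracts. The members are 10 of 60675 gene rows, and all 10 had enough counts to be tested. The extracts were 70% ethanol extracts of the Korean tonic formulas Palmul-tang and Sibjeondaebo-tang (3 libraries per dose), Samul-tang (2 libraries per dose) and Sagunja-tang (1 library per dose), each at 20 (low), 100 (medium) and 500 µg/mL (high). The vehicle was DMSO alone (3 libraries, 0.1% per the sample labels). Traditionally, Palmul-tang is a mixture of Samul-tang with Sagunja-tang, and cinnamon and Astragalus turn Palmul-tang into Sibjeondaebo-tang. All groups were the same line grown with serum.

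In liver cells, insulin binds its receptor INSR, which phosphorylates the docking proteins IRS1 and IRS2 and through PI3-kinase activates AKT. AKT keeps the transcription factor FOXO1 out of the nucleus, so that FOXO targets such as IGFBP1, IRS2 and INSR itself are repressed by insulin and induced in fasting. TXNIP and ARRDC4 are alpha-arrestins that restrain glucose uptake, and both are classic targets of the glucose-sensing factors MondoA and ChREBP.

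Sequences are shown for TXNIP and ARRDC4 because their regulation is tied to known promoter elements. The 250 bases before the RefSeq transcription start (GRCh38.p14) are printed from 5′ to 3′ on the gene's strand, with matches to the searched motifs in capitals.

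TXNIP, chr1:145996580-145996829, minus strand: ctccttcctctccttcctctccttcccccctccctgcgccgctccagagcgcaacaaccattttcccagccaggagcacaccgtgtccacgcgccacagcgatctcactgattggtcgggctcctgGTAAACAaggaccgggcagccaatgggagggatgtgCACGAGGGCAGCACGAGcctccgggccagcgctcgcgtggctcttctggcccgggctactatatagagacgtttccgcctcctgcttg
ARRDC4, chr15:97960453-97960702, plus strand: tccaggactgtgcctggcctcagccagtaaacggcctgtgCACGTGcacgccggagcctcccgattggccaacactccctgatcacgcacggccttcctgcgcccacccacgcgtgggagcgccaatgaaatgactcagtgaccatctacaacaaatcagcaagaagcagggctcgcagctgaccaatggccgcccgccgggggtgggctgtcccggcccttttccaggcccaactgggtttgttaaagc

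The motifs below were searched on both strands of a 300-base window, 250 before to 50 after the start. TXNIP had 2 windows, and the second (chr1:145995695-145995994) held none of the motifs. The first TXNIP window, printed above in part, held the FOXO element GTAAACA at -124 (chr1:145996697-145996703), which 3.42% of 35116 RefSeq promoters also hold. It also held a carbohydrate response element, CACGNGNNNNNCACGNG, as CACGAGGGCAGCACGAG at -88 (chr1:145996651-145996667), which 20 promoters (0.057%) hold. The ARRDC4 window held the E-box CACGTG at -210 (chr15:97960493-97960498), found in 7.26% of promoters. IRS1 held an E-box at 35, and IRS2 held the insulin response element CAAAACA (4.92% of promoters) on the other strand at -40. PIK3IP1 held a FOXO element on the other strand in the second of its windows. The windows of INSR, SESN3 and FOXO1 had none of these letters. IGFBP1 and SLC2A4 had no promoter in the set used, so neither was searched and nothing is known here of their motifs. A match describes letters, not binding.

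Libraries held 21570416 to 37707232 expected counts. Separate cultures are not named for the replicates, so the p-values reflect library-to-library spread that may be technical. All sample titles name the same batch, E. By sample description, however, vehicle libraries carried one label prefix, Samul-tang and Sagunja-tang another, and Palmul-tang and Sibjeondaebo-tang a further one. What a prefix marks is not stated, so that an extract effect and a library-set effect cannot be told apart in comparisons with vehicle. High against low dose, and Sibjeondaebo-tang against Palmul-tang, lay within a set. The 8 liver markers, ALB and AFP among them, summed to 53530 to 64423 CPM (library-size-scaled counts, with TMM factors) in every group. Fibroblast markers summed to 34.2 CPM in Sibjeondaebo-tang low replicate 3 and to at most 7.63 CPM elsewhere. Immune markers summed to 49.1 to 82.5 CPM in extract libraries and 50.9 to 55.7 CPM in vehicle, where PTPRC and CD3E were at 0, and endothelial markers to at most 3.16 CPM. Samul-tang medium replicates 2 and 3 differed most of all replicate pairs (chi-square per gene 30.9, next highest 18.8). Their part in the results was not tested, beyond the values without a library given below.

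Levels differed widely between members. Per kilobase of merged exon, the mean level over libraries was 128 CPM per kb for IGFBP1 and 13.6 CPM per kb for TXNIP. IRS1 (6.12), INSR (5.29) and FOXO1 (4.95 CPM per kb) followed, then SLC2A4 (1.94), ARRDC4 (1.09), PIK3IP1 (0.520) and SESN3 (0.188). IRS2 was lowest at 0.0796 CPM per kb, with 10 to 28 counts per library.

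Against vehicle, IGFBP1 rose and SLC2A4 fell in all 9 tested extract groups, TXNIP and ARRDC4 fell in 6 each, and IRS1 and IRS2 passed the test in none. These 9 comparisons share the same 3 vehicle libraries and are not independent of each other. The mitochondrial share of counts was 17.2 to 19.4% in Sibjeondaebo-tang high, 14.9 to 16.9% in Palmul-tang high, 15.4 to 16.7% in Samul-tang high and 11.2 to 19.7% over all extract libraries, against 12.4 to 14.5% in vehicle, and its part in these differences was not tested. A gene was called at an adjusted p under 0.05 (edgeR quasi-likelihood, Benjamini-Hochberg over 16083 genes). At the high dose, 6 members were called for Palmul-tang (1 higher, 5 lower), against 31.8% of all genes, 6 for Sibjeondaebo-tang (2 higher, 4 lower), against 36%, and 4 for Samul-tang (1 higher, 3 lower), against 18.5%. At the medium dose, 4, 3 and 4 members were called for Palmul-tang, Sibjeondaebo-tang and Samul-tang, against 22.3%, 30.2% and 19.8% of all genes. At the low dose the counts were 5, 5 and 4, against 23.2%, 23% and 11.3%. The median log2 fold change over the 10 members at the high dose was -0.21 (Palmul-tang), -0.16 (Sibjeondaebo-tang) and -0.29 (Samul-tang), beside medians over all genes of -0.0087, -0.0087 and -0.0040.

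**Figure D1:**
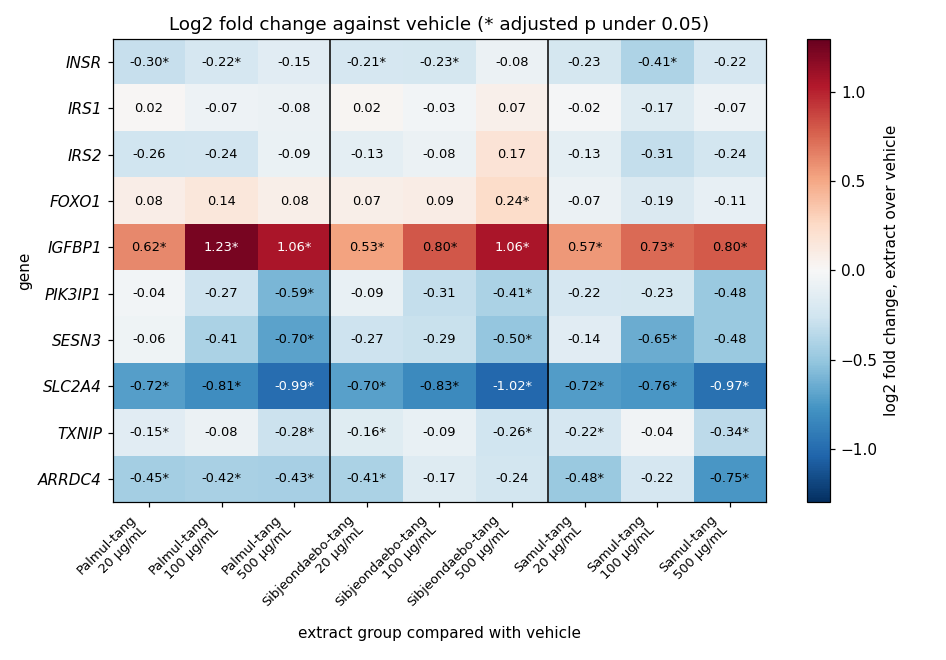
Log2 fold change of each of the 10 genes (rows) in 9 extract groups over vehicle (columns, by formula and dose), from edgeR; an asterisk marks an adjusted p under 0.05. The IGFBP1 row is positive and called throughout (0.53 to 1.23), the SLC2A4 row negative and called throughout (-1.02 to -0.70), and the IRS1 and IRS2 rows hold no call.

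IGFBP1 (chr7:45888357-45893668, GRCh38) encodes a secreted liver protein that binds insulin-like growth factors and is a standard marker of low insulin action. At the high dose it stood at 272, 234 and 233 CPM with Palmul-tang, 275, 249 and 215 CPM with Sibjeondaebo-tang and 211 and 201 CPM with Samul-tang, against 103, 116 and 136 CPM in vehicle. Every one of the 27 extract libraries (151 to 331 CPM) was above every vehicle library. The log2 fold change over vehicle was 1.06 ± 0.15 (SE, adjusted p = 3.74e-05, edgeR) for Palmul-tang high, 1.06 ± 0.15 (adjusted p = 3.03e-05) for Sibjeondaebo-tang high and 0.80 ± 0.17 (adjusted p = 0.00254) for Samul-tang high. Here, as in all bulk RNA, more RNA per cell and more cells with the RNA cannot be told apart.

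By dose, IGFBP1 averaged 182 ± 14.8 CPM at the low, 277 ± 28.2 CPM at the medium and 247 ± 22.2 CPM at the high dose of Palmul-tang (SD, n = 3 each). For Sibjeondaebo-tang the means were 170 ± 25.0, 206 ± 46.4 and 246 ± 30.3 CPM (SD, n = 3 each). For Samul-tang they were 175 ± 23.7, 197 ± 0.46 and 206 ± 7.07 CPM (SD, n = 2 each), and the single Sagunja-tang libraries held 251, 272 and 331 CPM, the last being the highest of all. Without Samul-tang medium replicate 2 the medium call of Samul-tang was lost (adjusted p = 0.0609, edgeR). The low-dose calls were also lost with some libraries left out, at 0.0601 to 0.0901 for Sibjeondaebo-tang (vehicle replicate 1 or 2, or its own replicate 1) and at 0.0646 to 0.308 for Samul-tang (vehicle replicate 1 or 2, or either of its own). Fitted on the compared groups alone, the calls of Sibjeondaebo-tang medium (0.0503) and low (0.0799) and of Samul-tang low (0.145) were lost.

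SLC2A4 (chr17:7281667-7288257) encodes GLUT4, the insulin-responsive glucose transporter best known from muscle and fat. It held 6.94, 5.89 and 6.60 CPM with Palmul-tang high, 6.54, 6.31 and 6.15 CPM with Sibjeondaebo-tang high and 6.91 and 6.16 CPM with Samul-tang high, against 13.3, 12.9 and 12.3 CPM in vehicle. All 27 extract libraries (5.89 to 8.46 CPM) were below all vehicle libraries. The log2 fold change was -0.99 ± 0.08 for Palmul-tang high (adjusted p = 2.57e-10, edgeR), -1.02 ± 0.09 for Sibjeondaebo-tang high (1.2e-10) and -0.97 ± 0.09 for Samul-tang high (7.65e-09). At the low dose it was -0.72, -0.70 and -0.72 in the same order of formulas. These 9 calls held with every library left out and under every other setting tried.

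Of the adipocyte and muscle markers, FABP4 and LEP were at 0 counts in every library and ADIPOQ and MYH2 at 2 or fewer. CKM had 3 to 14 counts and MYH7 0 to 10, while PLIN1 had 46 to 144 counts (up to 3.98 CPM) and ACTA1 73 to 181 (up to 5.89 CPM). The 8 markers summed to 4.77 to 9.02 CPM in extract libraries and to 8.35 to 9.63 CPM in vehicle, and their part in the SLC2A4 difference was not tested. YBX2, which overlaps SLC2A4 on the opposite strand, had 16 to 48 counts per library, against 143 to 466 for SLC2A4. The kit kept strand, but whether the counting used strand was not stated.

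**Figure D2:**
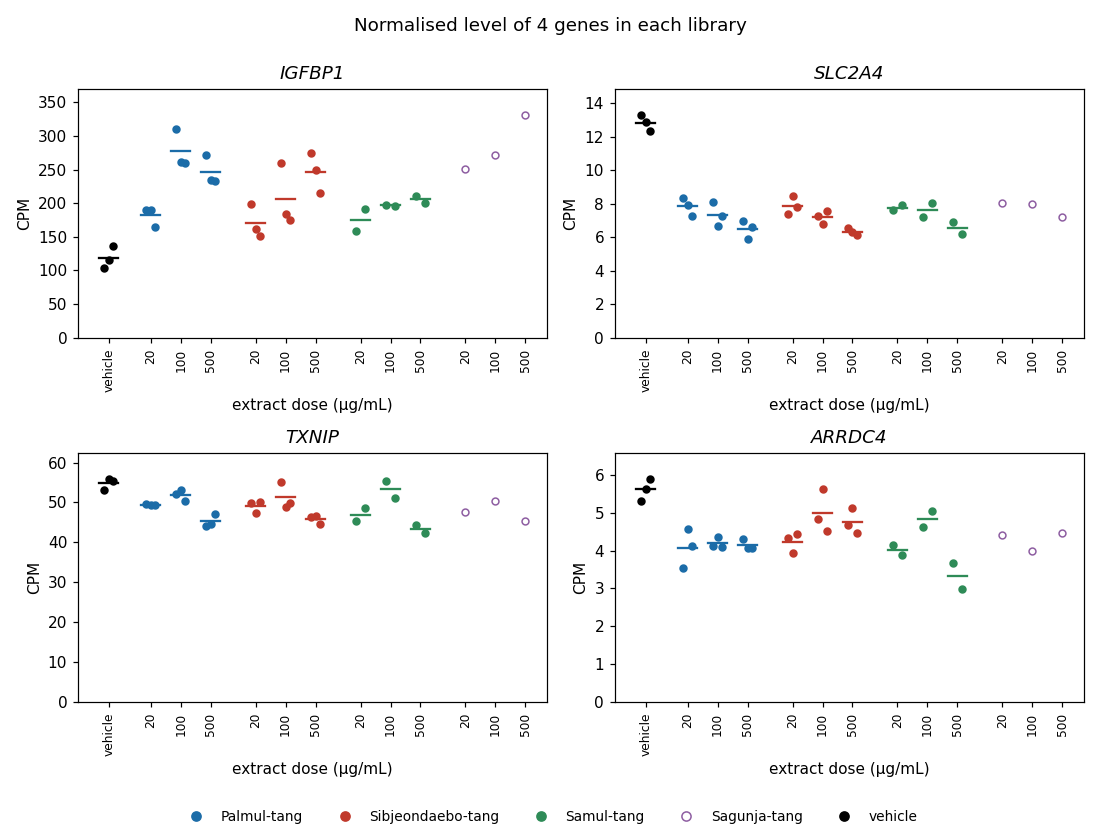
Level in CPM (linear axis from 0) of IGFBP1, SLC2A4, TXNIP and ARRDC4 in vehicle and at 20, 100 and 500 µg/mL of each formula; points are libraries, bars group means, and open points the single Sagunja-tang libraries. Extract libraries all lie above vehicle for IGFBP1 (151 to 331 CPM, against 103 to 136 CPM) and all below it for SLC2A4 (5.89 to 8.46 CPM, against 12.3 to 13.3 CPM), and TXNIP is highest at the middle dose of each formula.

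TXNIP (chr1:145992435-145996600), which binds thioredoxin and limits glucose uptake, moved by small amounts with a narrow spread. It held 44.2, 44.7 and 47.2 CPM with Palmul-tang high, 46.3, 46.6 and 44.6 CPM with Sibjeondaebo-tang high and 44.5 and 42.3 CPM with Samul-tang high, against 53.2, 55.8 and 55.4 CPM in vehicle. Over all doses, 25 of 27 extract libraries were below every vehicle library. The log2 fold change over vehicle was -0.28 ± 0.05 for Palmul-tang high (adjusted p = 9.65e-05, edgeR), -0.26 ± 0.05 for Sibjeondaebo-tang high (0.000166) and -0.34 ± 0.06 for Samul-tang high (7.42e-05). TXNIP also fell at the low dose, by 0.15, 0.16 and 0.22 on the log2 scale in the same order of formulas. The low-dose call of Palmul-tang was lost without vehicle replicate 2 or 3 or any of its own replicates (adjusted p 0.0684 to 0.132), that of Sibjeondaebo-tang without vehicle replicate 2 or 3 or its replicate 2 (0.0559 to 0.107), and that of Samul-tang without its replicate 2 (0.156). With no filter on low counts the low-dose calls of Palmul-tang (0.177) and Sibjeondaebo-tang (0.124) were lost.

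The medium dose stood between vehicle and the other doses for TXNIP, and its values did not pass the test against vehicle (log2 fold changes -0.08, -0.09 and -0.04, adjusted p 0.257, 0.157 and 0.662, edgeR). Without Sibjeondaebo-tang medium replicate 1, the value of Sibjeondaebo-tang medium was -0.15 and called (0.0332). By dose from low to high, the means were 49.4, 51.8 and 45.4 CPM for Palmul-tang, 49.1, 51.3 and 45.8 CPM for Sibjeondaebo-tang and 47.0, 53.3 and 43.4 CPM for Samul-tang. The single Sagunja-tang libraries held 47.6, 50.5 and 45.4 CPM. High against medium dose was compared after these values were seen. TXNIP fell in it for Palmul-tang (-0.19 ± 0.05, adjusted p = 0.0329), Sibjeondaebo-tang (-0.16 ± 0.05, 0.0318) and Samul-tang (-0.30 ± 0.06, 0.0102). IGFBP1 in Sibjeondaebo-tang was called without medium replicate 1 (0.45, 0.0481). It was also called with no filter (0.24, 0.000631), a setting whose limit for this gene is given with the other dose and formula comparisons below. For Palmul-tang and Sibjeondaebo-tang TXNIP was the single member called, against 2.26% and 11.1% of all genes, and for Samul-tang ARRDC4 fell too, 2 of 10, against 0.97%. Each call was lost with some libraries left out: for Palmul-tang without replicate 1 or 2 of either dose (0.101 to 0.173), for Sibjeondaebo-tang without medium replicate 1 or high replicate 2 or 3 (0.0564 to 0.203), and for Samul-tang without medium replicate 2 (0.15) or high replicate 3 (0.206). Fitted on the compared groups alone, the calls of Palmul-tang (0.0813) and Samul-tang (0.94) were lost too, and with no filter those of Palmul-tang (0.108) and Sibjeondaebo-tang (0.0541).

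ARRDC4 (chr15:97960698-97973838), an alpha-arrestin paralogue of TXNIP, held 4.32, 4.07 and 4.06 CPM with Palmul-tang high, 4.68, 5.12 and 4.47 CPM with Sibjeondaebo-tang high and 3.67 and 2.98 CPM with Samul-tang high, against 5.32, 5.64 and 5.89 CPM in vehicle. All but 1 of the 27 extract libraries were below every vehicle library, the exception being a Sibjeondaebo-tang medium library at 5.62 CPM. ARRDC4 fell with Palmul-tang at each dose (-0.45, -0.42 and -0.43 from low to high) and with Samul-tang high (-0.75 ± 0.12, adjusted p = 4.92e-05, edgeR). It also fell at the low dose of Sibjeondaebo-tang (-0.41, 0.00474) and of Samul-tang (-0.48, 0.00823), the last call being lost without its replicate 3 (0.127). Sibjeondaebo-tang high gave -0.24 ± 0.11 (0.0786), and Samul-tang high against medium -0.53 ± 0.13 (0.0425), a call lost without any 1 of its 4 libraries (0.0541 to 0.443) and in a fit of the compared groups alone (0.94).

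INSR (chr19:7112255-7294034), the receptor itself, was lower than every vehicle library in 26 of 27 extract libraries. It held 51.8, 51.7 and 50.8 CPM with Palmul-tang low and 54.2, 55.0 and 54.1 CPM with Sibjeondaebo-tang low, against 61.2, 62.3 and 65.9 CPM in vehicle. INSR fell in Palmul-tang low (-0.30 ± 0.07, adjusted p = 0.00455, edgeR) and medium (-0.22, 0.0295), and in Sibjeondaebo-tang low (-0.21, 0.0342) and medium (-0.23, 0.019). It also fell in Samul-tang medium (-0.41, 0.000991), where replicate 2 held 39.1 CPM and replicate 3 held 56.6 CPM, and without replicate 2 that value was -0.15 (adjusted p = 0.189). Fitted on the compared groups alone, it was not called (0.126). At the high dose the values were -0.15, -0.08 and -0.22, none called, and Samul-tang low gave -0.23 (0.074). Fitted on the compared groups alone, INSR was called in Palmul-tang high (0.0282), Samul-tang high (0.0087) and Samul-tang low (0.0066), and with no filter in Samul-tang high (0.0344) and low (0.0193). Without Samul-tang medium replicate 3, INSR was also called in Samul-tang high against medium (0.47, 3.37e-05). The call of Palmul-tang medium was lost without vehicle replicate 2 or 3 or its own replicate 2 or 3 (adjusted p 0.0635 to 0.113), that of Sibjeondaebo-tang medium without vehicle replicate 3 or its replicate 2 (0.0778 and 0.0846), and that of Sibjeondaebo-tang low without any 1 of its own or the vehicle libraries (0.0513 to 0.122).

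IRS1 (chr2:226731317-226799759), a docking protein of the receptor, ranged from 50.4 to 65.9 CPM in extract libraries and from 61.2 to 63.4 CPM in vehicle, with log2 fold changes of -0.17 to 0.07. Without Samul-tang medium replicate 3, the IRS1 value of Samul-tang medium was -0.29 and called (adjusted p = 0.00152, edgeR), that of high against medium was 0.23 and called (0.0357), and without replicate 2 the medium value was -0.04. IRS2 (chr13:109752698-109786568), the second docking protein, held 0.389 to 1.06 CPM in extract libraries and 0.553 to 0.820 CPM in vehicle. At that depth its 95% interval for Palmul-tang high over vehicle ran from -0.64 to 0.47 on the log2 scale, so that a change of either sign inside it was not detectable. FOXO1 (chr13:40469953-40666597), the transcription factor, held 34.0, 34.4 and 36.2 CPM with Sibjeondaebo-tang high, against 30.6, 28.5 and 29.6 CPM in vehicle. That rise (0.24 ± 0.06, adjusted p = 0.00264, edgeR) was its single call against vehicle, and Samul-tang values were negative at each dose (-0.19 to -0.07, none called). Without Palmul-tang medium replicate 1, FOXO1 was called there too (0.19, 0.0335).

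**Figure D3:**
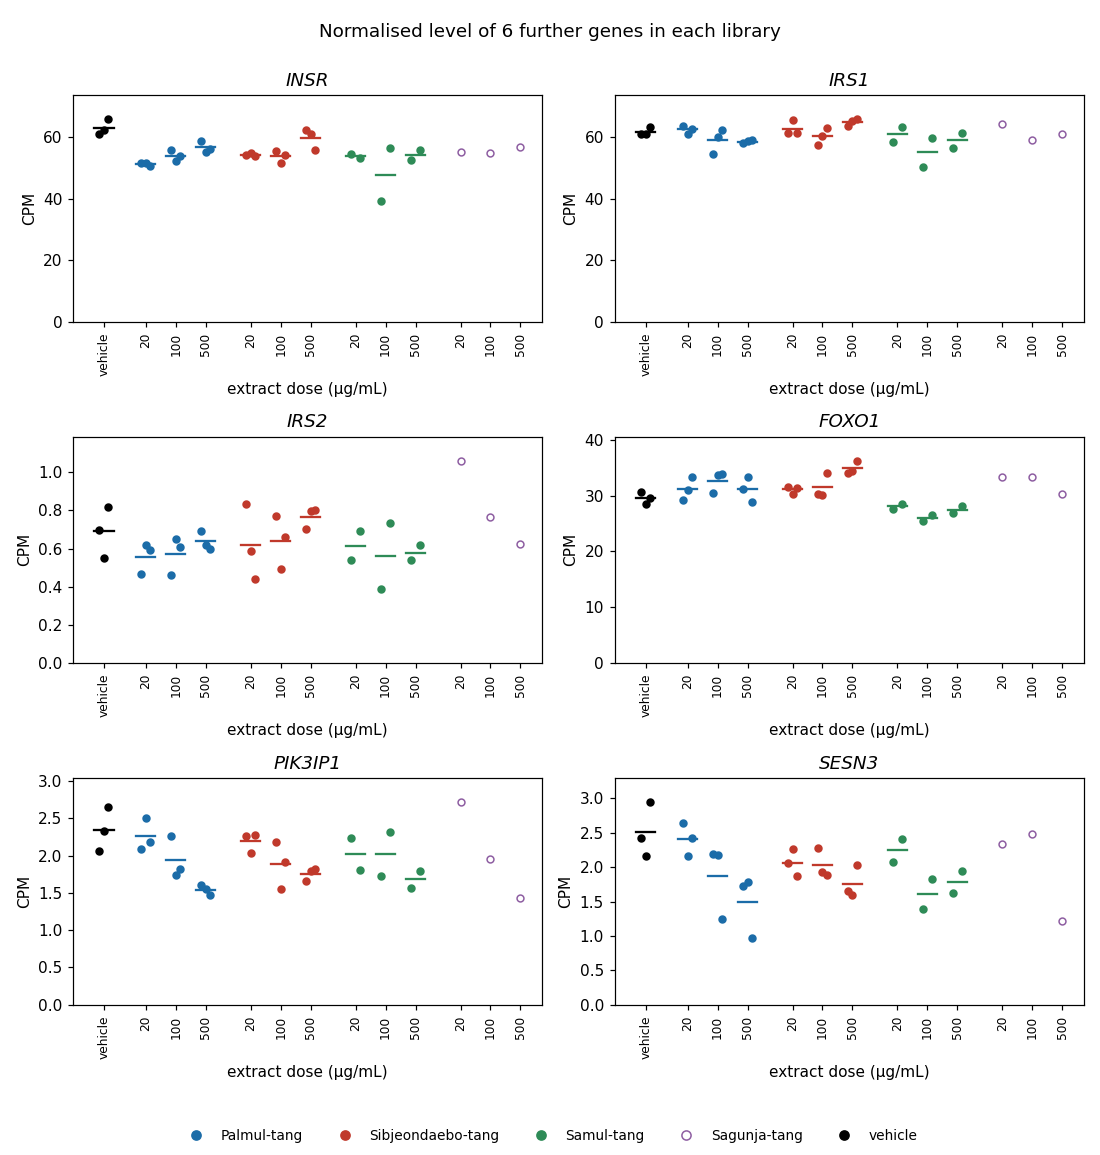
Level in CPM (linear axis from 0) of INSR, IRS1, IRS2, FOXO1, PIK3IP1 and SESN3 in vehicle and at 20, 100 and 500 µg/mL of each formula; points are libraries, bars group means, and open points the single Sagunja-tang libraries. PIK3IP1 and SESN3 are lowest at 500 µg/mL for Palmul-tang, and INSR shows the low Samul-tang medium library at 39.1 CPM.

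PIK3IP1 (chr22:31281593-31292534), a membrane protein that inhibits PI3-kinase, and SESN3 (chr11:95165513-95232541), a sestrin and FOXO target that acts on mTORC1, were expressed at low levels, and against the low dose both fell at the high dose of Palmul-tang. PIK3IP1 held 1.60, 1.55 and 1.48 CPM with Palmul-tang high, against 2.09, 2.50 and 2.19 CPM with Palmul-tang low. The 2 groups did not overlap, but this held for 7 of the 10 members in this comparison, where 2 were called. The share of all genes without overlap was not counted, so non-overlap is not read as a result here. PIK3IP1 fell against the low dose (-0.55 ± 0.16, adjusted p = 0.0322, edgeR) and against vehicle (-0.59 ± 0.16, 0.00525), which held 2.06, 2.32 and 2.65 CPM. SESN3 held 1.72, 1.79 and 0.969 CPM with Palmul-tang high, against 2.65, 2.16 and 2.43 CPM with Palmul-tang low. It fell against the low dose (-0.64 ± 0.20, 0.048) and against vehicle (-0.70 ± 0.20, 0.00736).

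The PIK3IP1 call of Palmul-tang high against vehicle held under all 11 alternatives (adjusted p 0.00449 to 0.0332, edgeR and DESeq2). Against the low dose, PIK3IP1 was lost without high replicate 1, 2 or 3 or low replicate 2 or 3 (adjusted p 0.0622 to 0.17, edgeR), and SESN3 without high replicate 1 or 3 or any low replicate (0.0611 to 0.236). DESeq2 called neither (0.101 and 0.0745), nor did a fit of the compared groups alone (0.0612 and 0.0655), and PIK3IP1 was lost with no filter (0.0629). Against vehicle, SESN3 was lost without Palmul-tang high replicate 3 (0.0587). With Sibjeondaebo-tang high both fell against vehicle (PIK3IP1 -0.41, 0.0432, and SESN3 -0.50, 0.0465). Those calls were lost with most single libraries left out, at 0.0658 to 0.169 for PIK3IP1 (vehicle replicate 2 or 3, or any of its own) and 0.0611 to 0.199 for SESN3 (vehicle replicate 1 or 3, or its replicate 1 or 2). DESeq2 called neither (0.123 and 0.0864), and PIK3IP1 was also lost with no filter (0.0982) and in a fit of the compared groups alone (0.0576). SESN3 also fell in Samul-tang medium (-0.65, 0.0352), a call lost without vehicle replicate 1 or 3 or Samul-tang medium replicate 2 (0.0546 to 0.416), with DESeq2 (0.0614) and in a fit of the compared groups alone (0.122). With Samul-tang high neither was called against vehicle (PIK3IP1 -0.48, 0.051, and 0.0405 without vehicle replicate 1; SESN3 -0.48, 0.109), nor against the low dose. In the single Sagunja-tang libraries from low to high, PIK3IP1 held 2.71, 1.96 and 1.43 CPM and SESN3 2.33, 2.49 and 1.21 CPM.

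High against low dose asks whether members followed the dose within a library set. For Palmul-tang 2 members were called, PIK3IP1 and SESN3 as above, against 6.78% of all genes. For Sibjeondaebo-tang 2 were called, against 19.8%: IGFBP1 rose (0.53 ± 0.15, adjusted p = 0.0171, edgeR) and SLC2A4 fell (-0.32 ± 0.09, 0.0103). For Samul-tang none was called, against 1.42% of all genes (229, with 1600 at an unadjusted p under 0.05), nor by DESeq2. IGFBP1 was positive in all 3 formulas (0.44, 0.53 and 0.23) and SLC2A4 negative (-0.27, -0.32 and -0.25), with Palmul-tang at adjusted p 0.094 and 0.0663. The Palmul-tang value of IGFBP1 was called with no filter (5.59e-13) and in a fit of the compared groups alone (0.00212), and that of Samul-tang with no filter (0.0166). With no filter the log2 values were 0.43 and 0.25, near those of the main fit, so the no-filter calls came without larger changes. The spread estimated without the filter was not compared, and these calls are not taken as added evidence. The Sibjeondaebo-tang call of IGFBP1 was lost without high replicate 1 or low replicate 2 or 3 (0.0666 to 0.104), and that of SLC2A4 without low replicate 2 (0.0743). Fitted on the compared groups alone, the Sibjeondaebo-tang call of IGFBP1 was lost (0.0913), and TXNIP (-0.13, 0.0418) and FOXO1 (0.14, 0.0404) were called.

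**Figure D4:**
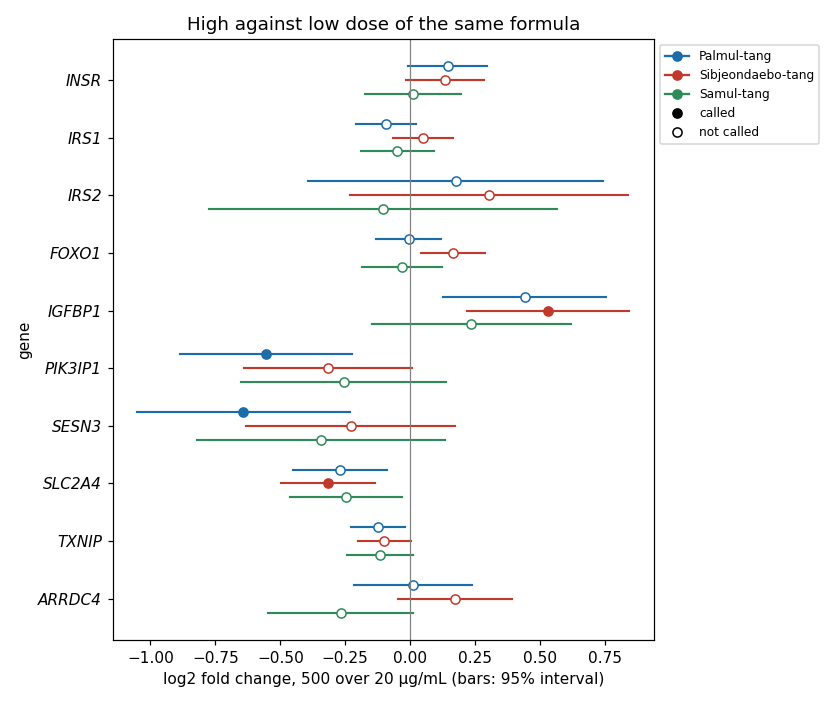
Log2 fold change of each gene at 500 over 20 µg/mL of the same formula (x axis) with its 95% interval, from edgeR; filled points have an adjusted p under 0.05. IGFBP1 lies right of 0 and SLC2A4 and TXNIP left of 0 for all 3 formulas, and filled points are PIK3IP1 and SESN3 for Palmul-tang and IGFBP1 and SLC2A4 for Sibjeondaebo-tang.

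Whether the formulas differed in these members was tested directly. Sibjeondaebo-tang against Palmul-tang gave no called member at the high dose (6.47% of all genes called), the medium dose (0.0311%) or the low dose (0%, 338 genes at an unadjusted p under 0.05). DESeq2 also called no member at any of these doses and no gene at the low dose. For IGFBP1 at the high dose the difference was 0.00 with a 95% interval of -0.32 to 0.31, and for SLC2A4 it was -0.03 (-0.22 to 0.16). At the medium dose IGFBP1 held 260, 184 and 175 CPM with Sibjeondaebo-tang, against 310, 262 and 260 CPM with Palmul-tang. The log2 difference was -0.43 (-0.74 to -0.11, adjusted p = 0.693, edgeR). With no filter it was called at nearly the same value (-0.42, adjusted p = 7.28e-12, edgeR). The spread estimated without the filter was not compared with that of the main fit, so that call is not taken as added evidence of a difference. FOXO1 (0.16, 0.04 to 0.29) and IRS1 (0.15, 0.03 to 0.26) had intervals above 0 at the high dose, with adjusted p 0.112 and 0.12. The dose effect itself did not differ by the test for any member between Sibjeondaebo-tang and Palmul-tang (2% of all genes called), Palmul-tang and Samul-tang (0.0124%) or Sibjeondaebo-tang and Samul-tang (1.68%). A p above the threshold does not show that the formulas act alike.

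Other genes of the pathway came from 5 named lists, described by counts. Of 33 tested genes of insulin and PI3K-AKT signalling, 10 were higher and 5 lower in Palmul-tang high against vehicle, 9 and 1 in Sibjeondaebo-tang high and 4 and 3 in Samul-tang high. Over all genes, 31.8%, 36% and 18.5% were called in these comparisons, and with lists of 8 to 33 genes the counts here and below describe the lists only. SOS1, the exchange factor that links receptors to RAS, rose in all 3 (in that order, as below, log2 fold changes of 0.86 ± 0.06, 0.71 ± 0.06 and 0.54 ± 0.06) and also against the low dose (0.59, 0.42 and 0.32). EIF4EBP1, a translation repressor that mTORC1 inactivates, rose by 0.36, 0.38 and 0.31 against vehicle, and GSK3A, a kinase inhibited by AKT, by 0.43, 0.40 and 0.29. PIK3CB, a catalytic PI3-kinase subunit, rose against vehicle with Palmul-tang (0.16) and Sibjeondaebo-tang (0.30), and Samul-tang gave 0.13 (adjusted p = 0.124, edgeR). Against the low dose, GSK3A gave 0.07, 0.07 and 0.09, none called. EIF4EBP1 gave 0.28, 0.24 and 0.13 there, the last not called, and PIK3CB 0.04, 0.20 and -0.01, called for Sibjeondaebo-tang only. The list's median log2 fold change against vehicle was -0.0157, 0.0459 and -0.0062, beside -0.0087, -0.0087 and -0.0040 over all genes.

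Of 19 tested FOXO factors and targets, 5 were higher and 4 lower in Palmul-tang high against vehicle, 6 and 1 in Sibjeondaebo-tang high and 5 and 2 in Samul-tang high (list medians 0.057, 0.0044 and 0.043), beside 31.8%, 36% and 18.5% of all genes called and all-gene medians of -0.0087, -0.0087 and -0.0040. DEPP1, a FOXO target linked to autophagy, averaged 17.5 ± 0.87 CPM in Palmul-tang high and 10.9 ± 1.04 CPM in vehicle (SD, n = 3 each). It rose by 0.68, 0.74 and 0.62 in the 3 formulas against vehicle. CITED2, a transcriptional co-regulator, rose by 0.42, 0.53 and 0.41, and PPARGC1A, the gluconeogenic coactivator PGC-1alpha, by 0.35, 0.43 and 0.30. Against the low dose, DEPP1 gave 0.12, 0.09 and -0.04 and CITED2 -0.09, 0.11 and 0.04, none called. PPARGC1A gave 0.12, 0.21 and 0.09 there, called for Sibjeondaebo-tang only. BCL6, a repressor, rose by 0.35, 0.27 and 0.35 against vehicle, and fell by 0.28 in Sibjeondaebo-tang high against low.

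Among 12 tested genes of MondoA, ChREBP, arrestins and thioredoxin, 3 were higher and 0 lower in Palmul-tang high against vehicle, 4 and 1 in Sibjeondaebo-tang high and 1 and 0 in Samul-tang high (list medians 0.037, 0.095 and 0.037), again beside 31.8%, 36% and 18.5% of all genes. MLXIPL, which encodes ChREBP, averaged 103 ± 7.84 CPM in Sibjeondaebo-tang high and 183 ± 8.41 CPM in vehicle (SD, n = 3 each). It fell there (-0.84 ± 0.07, adjusted p = 9.14e-11, edgeR), while Palmul-tang high gave -0.04 (0.655) and Samul-tang high -0.08 (0.46). Against the low dose, MLXIPL fell with Sibjeondaebo-tang (-0.98, adjusted p = 5.11e-12, edgeR) and also with Palmul-tang (-0.27, 0.00777), and Samul-tang gave -0.16 (0.526). Palmul-tang held 178 CPM at the high and 214 CPM at the low dose. TXN, the thioredoxin that TXNIP binds, rose by 0.46, 0.40 and 0.45 against vehicle and by 0.47, 0.37 and 0.39 against the low dose. KLF10 rose against vehicle with Palmul-tang (0.48) and Sibjeondaebo-tang (0.53), and against the low dose gave 0.01, 0.12 and 0.03, none called. GPD1, a glycerol phosphate enzyme, rose against the low dose (0.22, 0.32 and 0.38) but was not called against vehicle (0.07, 0.13 and 0.17). It averaged 25.6 CPM in vehicle, and 23.2, 22.5 and 22.2 CPM at the low doses.

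Of 8 tested insulin-like growth factor genes, 1 was higher and 3 lower in Palmul-tang high against vehicle, 2 and 1 in Sibjeondaebo-tang high and 0 and 0 in Samul-tang high (list medians -0.12, 0.02 and -0.08), beside the same 31.8%, 36% and 18.5%. IGFBP3, another binding protein, averaged 2.03 CPM in Palmul-tang high and 1.79 CPM in Sibjeondaebo-tang high, against 0.900 CPM in vehicle, and rose in both (1.20 ± 0.24 and 0.99 ± 0.24). IGFALS, which carries the ternary complex in blood, was also near the floor, at 0.595 and 0.569 CPM in these 2 groups, against 0.992 CPM in vehicle. It fell in both (-0.71 ± 0.26 and -0.79 ± 0.26, adjusted p 0.0319 and 0.017, edgeR). Against the low dose, IGFALS was called in neither (-0.21 and -0.64), and IGFBP3 was called with Sibjeondaebo-tang (0.72) but not Palmul-tang (0.59). IGF2, a growth factor, fell with Palmul-tang (-0.23, adjusted p = 0.0227, edgeR), and IGF2R, its clearance receptor, rose with Sibjeondaebo-tang (0.20, 0.0247). Of 11 tested glucose transporter and glucokinase genes, 3 were higher and 4 lower, 3 and 5, and 1 and 4 in the same order (list medians -0.12, -0.14 and -0.05), beside the same shares of all genes (31.8%, 36% and 18.5%). SLC2A10 fell by 0.54, 0.46 and 0.67, and SLC2A2, the main liver transporter GLUT2, by 0.36, 0.14 and 0.38. SLC2A1, which encodes GLUT1, rose with Palmul-tang (0.20) and Sibjeondaebo-tang (0.31), and SLC2A3, which encodes GLUT3, rose by 0.32, 0.36 and 0.26. Against the low dose, SLC2A3 gave 0.02, 0.195 and 0.13, none called. SLC2A2 gave -0.19, 0.06 and -0.30 there, with Sibjeondaebo-tang not called.

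Across the 13 group means, the gene given here with the pattern most like IGFBP1 was ERRFI1 (Pearson r = 0.976). For SLC2A4 the genes most like it were E2F2 (0.953) and CEBPA-DT (0.947), and for TXNIP ADH4 (0.901) and ZNF256 (0.888). For PIK3IP1 they were TMEM86B (0.960) and SPON2 (0.947), and for SESN3 SLC1A2 (0.944) and CPS1 (0.933). For ARRDC4 they were MCMBP (0.837) and AFAP1 (0.814). For INSR they were MIEF1 (0.947) and PAFAH1B2 (0.936), for FOXO1 SPRED2 (0.912) and CREB3L2 (0.900), for IRS1 ZNF704 (0.911) and CNNM2 (0.902), and for IRS2 PINK1-AS (0.815) and ZMYM2 (0.811). The 13 points share library sets and the vehicle, and the values are descriptions.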

How the data were processed

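RNA of HepG2 cells was sequenced from 30 libraries in 13 groups with a directional paired-end kit, per the labels' protocols. The authors deposited expected counts per gene. The submitters' processing notes name RSEM 1.3.3 and STAR 2.7.3a, with Trim Galore 0.6.5 and FastQC 0.11.9, and no annotation release was found. Of the deposited expected counts 8.56% were not whole, and all were rounded. The table's 240 other columns were not read. The vehicle is 0.1% DMSO in the sample labels and 2% in the design text.

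Genes were kept by filterByExpr (minimum count 10, total 15), which left 16083. TMM factors and edgeR 4.0.16 (R 4.3.3), robust quasi-likelihood, were used in 1 fit of 27 libraries in 10 groups, two-sided, with Benjamini-Hochberg adjustment and a threshold of 0.05. The standard error is the absolute log2 fold change over the square root of F, and intervals are 95%. Sagunja-tang, 1 library per dose, was described only. Symbols came from a table matching 56558 rows; SOD2 of the lists had no row. Positions are from GENCODE 29 on GRCh38. Promoters from RefSeq (GRCh38.p14) matched 8 of 10 members. The scripts were tested on simulated counts.

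Members and lists were chosen with earlier results of these data known. All members were named, with up to 4 called genes per list of smallest adjusted p at the high doses, and the 2 most correlated genes per member among those of mean log2 CPM of 2 or more. A gene that this rule takes is not reported here. Other settings were a replicate block, a fit of only the compared groups, no filter, median-ratio factors, DESeq2 1.42.0, each library left out, and a prior count of 0.5 in place of 2 for Sagunja-tang. High against medium dose was added after the values were seen.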

Additional observations from a re-analysis of the deposited data

How the results depend on the processing

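Of 2370 values of single members under the alternatives, 2252 stayed on their side of the threshold, 95 lost the call, 23 gained it and 0 reversed a call. The members called moved by more than 1.5 times in few settings. Fitted on the compared groups alone, they were 2 for Samul-tang medium against vehicle, 1 for Palmul-tang high against low, and 0 for Palmul-tang and for Samul-tang high against medium. With DESeq2 they were 0 for Palmul-tang high against low and 1 for Samul-tang high against medium. In the last, DESeq2 gave ARRDC4 no adjusted p, so its call there is missing and not lost. With no filter they were 1 (IGFBP1) for Samul-tang high against low and for Sibjeondaebo-tang against Palmul-tang medium, and 0 for Palmul-tang high against medium. The no-filter IGFBP1 calls came with log2 values near those of the main fit, and the spread estimated without the filter was not compared. Why the settings differed was not tested. With each library left out in turn, the members called ran from 1 to 5 for Samul-tang medium, 2 to 4 for Sibjeondaebo-tang low and 2 to 4 for Samul-tang low against vehicle. They ran from 0 to 1 for Palmul-tang and 0 to 2 for Sibjeondaebo-tang high against low, and from 0 to 1, 0 to 1 and 0 to 3 for Palmul-tang, Sibjeondaebo-tang and Samul-tang high against medium.

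Calls over all genes moved by more than 1.5 times for Samul-tang medium against vehicle (261 alone, 3188 in the full fit), Samul-tang high against low (376 with no filter, 229 filtered) and Samul-tang high against medium (495 with no filter, 0 alone and 277 with DESeq2, 156 in the full fit). For Sibjeondaebo-tang against Palmul-tang medium they were 168 with no filter, 26 with the replicate block and 24 with DESeq2, against 5, and at the low dose 72 with no filter and 3 alone, against 0. For the dose effects they were 562 with no filter against 322 (Sibjeondaebo-tang minus Palmul-tang), 85 with no filter and 1 with median-ratio factors against 2 (Palmul-tang minus Samul-tang), and 543 with no filter and 406 alone against 270 (Sibjeondaebo-tang minus Samul-tang). Median-ratio factors lowered the share of higher calls to 15.0% (27.1% with TMM) for Sibjeondaebo-tang against Palmul-tang high and to 33.9% (45.4% with TMM) for Sibjeondaebo-tang high against medium. Leaving out Samul-tang medium replicate 2 left 747 calls against vehicle, and leaving out its replicate 3 gave 1829 calls for high against medium. Libraries with the same number showed little shared deviation (r -0.17 to 0.15 over 111 pairs, 8 over 0.1), against -0.18 to 0.18 for other numbers. Deviations from means of 2 or 3 libraries are constrained, so these values cannot exclude that a number marks a shared culture or day. With the replicate block, SESN3 in Samul-tang medium against vehicle was lost (adjusted p = 0.0528, edgeR), and IRS1 (0.0202) and FOXO1 (0.0314) were gained there, as were IGFBP1 in Palmul-tang high against low (0.0468) and FOXO1 in Sibjeondaebo-tang high against low (0.0429). IRS2, at 10 to 28 counts, is limited by depth.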
